A study of Mus musculus with 4 samples.

Results

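The Schwann-cell genes described here are S100b, Sox10, Cryab, Cdh19, Gfap, Ngfr and Erbb3, 7 members taken by gene symbol from the 55536 genes of the count table. Each was found once, was detected in every library and was among the 19620 genes with enough counts to be tested. Schwann cells are the glia of peripheral nerves. In the pancreas they accompany the nerve fibres that enter islets and form a loose sheath at the islet border, so an islet preparation can carry their RNA. In peripheral nerve, the transcription factor Sox10 sets and keeps Schwann-cell identity. Neuregulin from axons signals through the receptor Erbb3 together with Erbb2, and the receptor Ngfr, also called p75, binds neurotrophins.

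The counts come from bulk RNA sequencing of pancreatic islets of male C57BL/6 mice aged 8 weeks. The 2 insulin-depleted libraries went through a step of library preparation that removes insulin sequences with a commercial panel, and the 2 non-depleted libraries did not. All 4 libraries share tissue, strain, sex, age and selection of polyadenylated RNA, and no allele or drug separates the groups. The labels call the libraries of a group biological replicates, but all 4 column names hold the same pair of codes and no label names the animals, so p-values may measure technical spread only. A size-selection tag stands in the column names of non-depleted libraries alone, so size selection and depletion cannot be told apart in any group difference.

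Library totals were 19316173 and 65030111 counts in insulin-depleted replicates 1 and 2, and 50605417 and 60528485 counts in non-depleted replicates 1 and 2. Ins1 and Ins2 together took 0.195 to 0.264% of counts in insulin-depleted libraries and 3.97 to 4.14% in non-depleted libraries. Levels are therefore given as CPM, the count scaled to a common library total that leaves out Ins1 and Ins2. The glucagon gene Gcg, a marker of islet alpha cells, had 11136 to 12812 CPM over the 4 libraries. Among counts of 2 to 9, 80.0 to 84.0% were even. The sources used here do not say whether reads or fragments were counted, and counting intervals are too narrow if each fragment gave 2 counts.

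The depletion panel acts on insulin sequence, so the transcripts of the 7 genes were searched for stretches like those of insulin. The panel's guide sequences were not used here. As a stand-in, all 377 stretches of 20 bases that precede an NGG motif on either strand of annotated Ins1 and Ins2 transcripts were taken, since the general kind of enzyme used for such panels cuts beside NGG. Of the 55448 other genes compared, 0 held one of them whole beside NGG. The closest stretch beside NGG in Cryab matched an Ins2 stretch at 16 of 20 bases, the best match among the members. Gfap matched at 15 bases and was the only member to share the 12 bases next to NGG, which 1.91% of all genes do. Those of S100b, Ngfr and Erbb3 matched at 15 bases, and those of Sox10 and Cdh19 at 14. Each match is the best of all pairs of stretches compared for that gene. How many other genes reach as many matching bases was not computed, so these matches show no particular likeness to insulin. The pairs for Cryab, for Gfap and for S100b, the member with the lowest mean CPM, are shown 5′ to 3′ with matching bases in capitals, from GENCODE M21 transcripts of GRCm38.
Ins2 beside Cryab: GaCaAAGGTAcAAaGGGCTC
Cryab: GcCgAAGGTAgAAgGGGCTC
Ins2 beside Gfap: CcttaACcCCTGCAGGTGGC
Gfap: CtggtACtCCTGCAGGTGGC
Ins1 beside S100b: TGggtAGGCAGATGGCcAGa
S100b: TGctcAGGCAGATGGCaAGc

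The 7 genes together held little of the islet RNA, and about as much with as without depletion. Their summed level was 73.8 and 61.9 CPM in insulin-depleted replicates 1 and 2, against 73.6 and 65.1 CPM in non-depleted replicates 1 and 2. The groups overlapped, with means of 67.8 ± 8.42 and 69.3 ± 6.00 CPM (SD, n = 2 each) and a ratio of 0.978. Between libraries of the same number the ratio was 1.00 for number 1 and 0.951 for number 2. Replicate 2 lay below replicate 1 in both groups. In bulk RNA, fewer Schwann cells and less RNA per Schwann cell cannot be told apart.

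**Figure D1:**
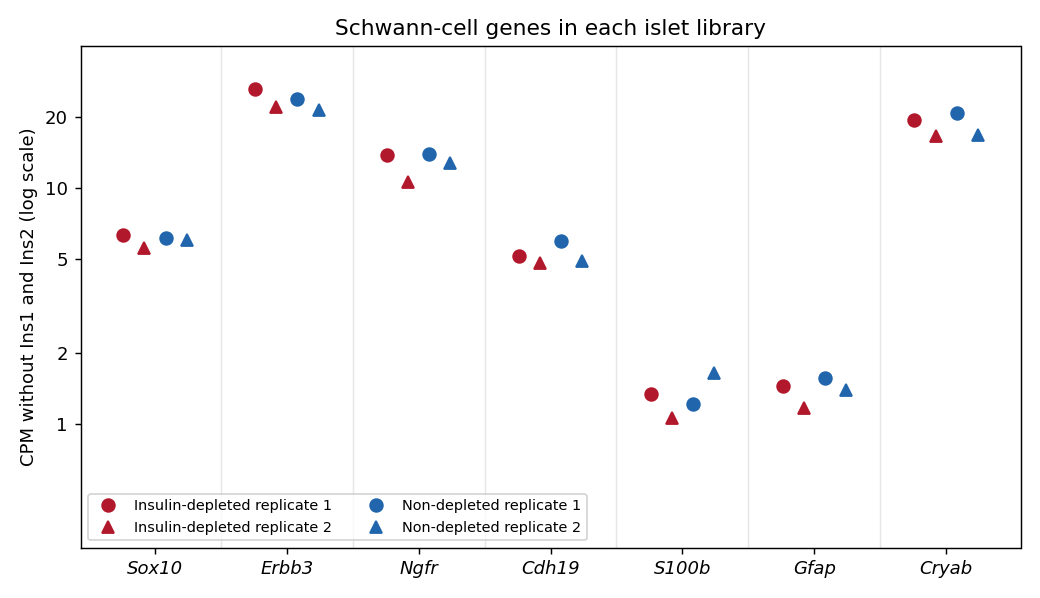
Level of each of the 7 Schwann-cell genes (CPM without Ins1 and Ins2, log axis) in the 2 insulin-depleted libraries (red, left) and the 2 non-depleted libraries (blue, right), with circles for replicate 1 and triangles for replicate 2. The genes lie between 1.06 and 26.2 CPM, and the groups overlap for each of them.

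Sox10 (ENSMUSG00000033006) lies on the minus strand of chromosome 15, 79154908 to 79165240. It had 6.33 and 5.57 CPM in insulin-depleted replicates 1 and 2, against 6.14 and 6.04 CPM in non-depleted replicates 1 and 2. The highest and the lowest value both came from insulin-depleted libraries, on either side of the non-depleted pair. Its log2 fold change, insulin-depleted over non-depleted, was -0.042 (SE 0.18), with a 95% interval of 0.713 to 1.32-fold, and it was 0.062 without insulin-depleted replicate 2. Of the other SoxE genes, which encode its closest relatives, Sox9 had 14.6 and 13.1 CPM in insulin-depleted libraries and 14.4 and 14.9 CPM in non-depleted libraries. Sox9 is also a duct-cell regulator. Sox8 lay at 0.104 CPM or less in every library and was not tested. Per kilobase of exons, Sox9 averaged 3.45 and Sox10 1.97 CPM, so Sox10 was the second of the trio.

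The receptors Erbb3 and Ngfr were the most abundant members by length after Cryab. Erbb3 (ENSMUSG00000018166, minus strand of chromosome 10, 128567523 to 128589652) encodes an ErbB receptor that binds neuregulin and lacks strong kinase activity of its own. It had 26.2 and 22.1 CPM in insulin-depleted replicates 1 and 2, against 23.9 and 21.4 CPM in non-depleted replicates 1 and 2. Insulin-depleted libraries were higher at either number, yet the groups overlapped because replicate 2 of the insulin-depleted group lay below replicate 1 of the non-depleted group. Its log2 fold change of 0.088 (SE 0.14, interval 0.834 to 1.35-fold) was the only one above 0 among the members. Without insulin-depleted replicate 1 it was -0.049.

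Ngfr (ENSMUSG00000000120) spans 95568818 to 95587735 on the minus strand of chromosome 11. It had 13.7 and 10.6 CPM in insulin-depleted replicates 1 and 2, against 13.9 and 12.8 CPM in non-depleted replicates 1 and 2. The lowest library was insulin-depleted replicate 2, and the other 3 lay above it by more than they differed from each other. The log2 fold change was -0.15 (SE 0.18, interval 0.665 to 1.22-fold), and it was 0.048 without insulin-depleted replicate 2.

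Cdh19 (ENSMUSG00000047216, minus strand of chromosome 1, 110888326 to 110977584) encodes a type II cadherin, an adhesion protein typical of Schwann-cell precursors and Schwann cells. It had 5.14 and 4.795 CPM in insulin-depleted replicates 1 and 2, against 5.96 and 4.92 CPM in non-depleted replicates 1 and 2. One library, non-depleted replicate 1, stood above the other 3, and without it the log2 fold change of -0.14 (SE 0.20, interval 0.640 to 1.29-fold) became 0.019. Among the 13 type II cadherins listed, 10 were tested and 0 passed, with 3 above and 7 below 0 and a median of -0.024. Per kb of exons, Cdh5, an endothelial cadherin, averaged 36.9, Cdh8 4.86, Cdh6 2.94 and Cdh19 1.22 CPM over the 4 libraries. Cdh9 had the largest difference of the list, a log2 fold change of -0.79 (SE 0.47) at a mean of 0.507 CPM.

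S100b and Gfap, the classical glial proteins, were the lowest members. S100b (ENSMUSG00000033208, plus strand of chromosome 10, 76253853 to 76261159) encodes a calcium-binding protein. It had 1.35 and 1.06 CPM in insulin-depleted replicates 1 and 2, from 26 and 69 counts, against 1.22 and 1.65 CPM in non-depleted replicates 1 and 2, from 59 and 96 counts. The exact Poisson 95% interval for the 26 counts ran from 0.881 to 1.98 CPM, which takes in the other 3 values and covers counting error only. S100b was the only member whose replicate 2 lay below replicate 1 in the insulin-depleted group (ratio 0.789) and above it in the non-depleted group (ratio 1.36). Its log2 fold change of -0.27 (SE 0.33) had the widest interval of the members, 0.466 to 1.47-fold.

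Gfap (ENSMUSG00000020932, minus strand of chromosome 11, 102887336 to 102900912) encodes the intermediate filament of glia, which pancreatic stellate cells can also make. It had 1.45 and 1.17 CPM in insulin-depleted replicates 1 and 2, against 1.57 and 1.39 CPM in non-depleted replicates 1 and 2. Of the insulin-depleted libraries, replicate 1 lay between the non-depleted values and replicate 2 below both. The log2 fold change was -0.19 (SE 0.30, interval 0.517 to 1.48-fold). Vim, the type III filament of mesenchymal cells and glia, averaged 26.7 CPM per kb of exons where Gfap averaged 0.331. Prph, of peripheral neurons, averaged 6.30 and the muscle filament gene Des 0.773 CPM per kb. None of these 4 filament genes passed the test, with 1 above and 3 below 0.

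Cryab (ENSMUSG00000032060, plus strand of chromosome 9, 50751325 to 50756636) encodes the small heat shock protein alpha-B-crystallin, which Schwann cells share with muscle and many stressed cells. It had 19.5 and 16.6 CPM in insulin-depleted replicates 1 and 2, against 20.9 and 16.9 CPM in non-depleted replicates 1 and 2. The replicates of each group differed more than same-numbered libraries of different groups. The log2 fold change was -0.072 (SE 0.17, interval 0.714 to 1.27-fold), and it was 0.055 without insulin-depleted replicate 2 and 0.10 without non-depleted replicate 1. On the opposite strand, exons of Hspb2 overlap 252 bases, or 17.0%, of the exon bases of Cryab, and strand use in counting is not stated. Hspb2 itself had 0 and 11 counts in insulin-depleted libraries and 11 and 12 counts in non-depleted libraries, against 376 to 1075 counts of Cryab.

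**Figure D2:**
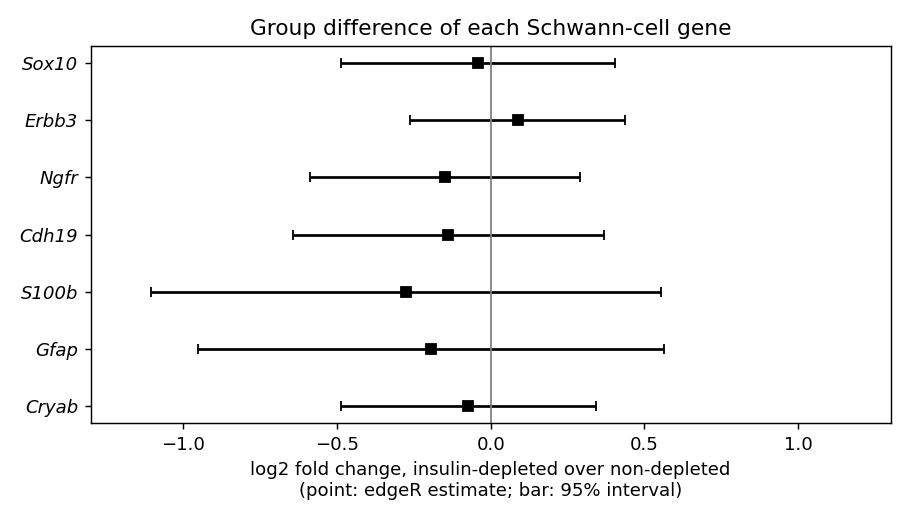
Log2 fold change of each gene, insulin-depleted over non-depleted (squares, edgeR), with 95% intervals as bars. All 7 intervals include 0, from the narrowest for Erbb3 to the widest for S100b.

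Across the whole table, 0 of the 7 members passed the test of the group difference. Each had an adjusted p of 1.00 (edgeR quasi-likelihood test, Benjamini-Hochberg over all genes), and 0.0102% of all tested genes passed, namely Ins1 and Ins2, both lower. DESeq2 and limma-voom also called 0 members. In edgeR 0 members reached an unadjusted p under 0.05, and only 79 of all 19620 tested genes did. A count of 0 among 7 members therefore does not set them apart from other genes. Of the members 1 lay above and 6 below a log2 fold change of 0, with a median of -0.14. Over all tested genes 49.6% lay above 0 and the median was -0.00073. The groups overlapped for each of the 7 members, whereas 10.0% of tested genes had non-overlapping groups with the insulin-depleted pair on top, and 9.38% had it at the bottom. The intervals given for each gene come from this fit by group alone, whose error takes in the differences between replicate numbers. Same-numbered libraries deviated together (r = 0.844), so these intervals and p-values may be too wide or too high for the group difference. They are not firm bounds on it.

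Levels of different genes were compared as CPM per kb of exons, with GENCODE M21 lengths. Cryab led with 12.5 ± 1.41 CPM per kb (SD over the 4 libraries), followed by Erbb3 with 3.89 ± 0.358 and Ngfr with 3.70 ± 0.449. Erbb3 and Ngfr overlapped over the 4 libraries and do not differ beyond their spread. Sox10 followed with 1.97 ± 0.107, Cdh19 with 1.22 ± 0.122, S100b with 0.890 ± 0.168 and Gfap with 0.331 ± 0.0393 CPM per kb. Apart from the pair of receptors, neighbours in this order did not overlap, although the lowest Cdh19 value (1.12) barely exceeded the highest S100b value (1.11). The mean of Cryab was 37.7 times that of Gfap per kb.

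**Figure D3:**
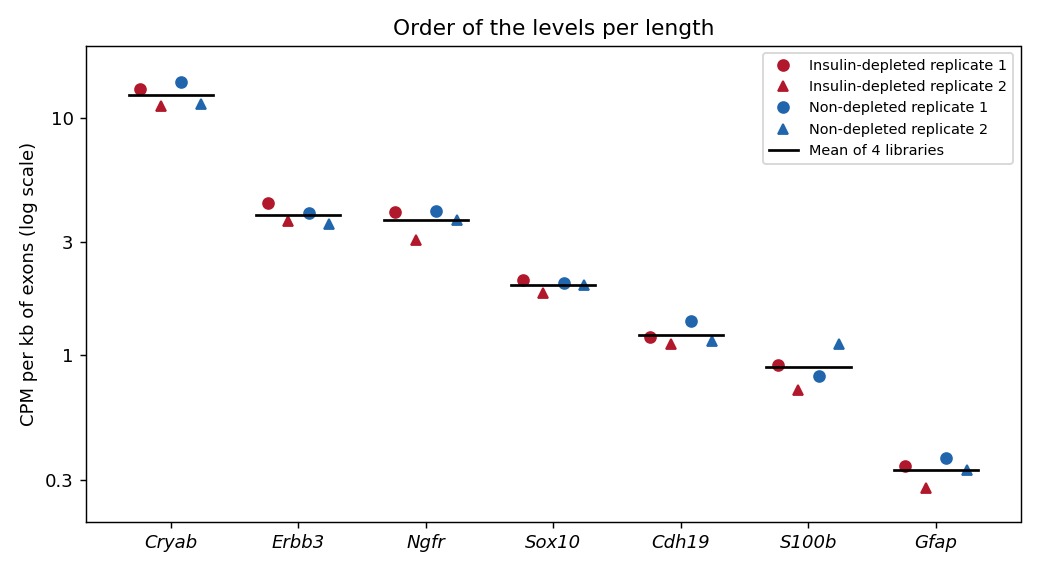
Levels per length (CPM per kb of exons, log axis), ordered by the mean of the 4 libraries (black bar), with insulin-depleted libraries in red to the left and non-depleted libraries in blue to the right. Cryab lies between 11.2 and 14.1 and Gfap between 0.278 and 0.371, and the ranges of Erbb3 and Ngfr overlap.

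Other genes of Schwann cells were detected beside the members. Foxd3, a transcription factor of neural crest and its glia, had 2.90 and 2.37 CPM in insulin-depleted libraries and 2.66 and 2.72 CPM in non-depleted libraries. All 21 genes of the list of further Schwann and glial genes were tested and 0 passed, with 6 above and 15 below 0 and a median of -0.093. Per kb of exons, the adhesion gene Ncam1 averaged 16.3 and the filament gene Nes 11.2 CPM. Ncam1 is also used by endocrine cells, so it does not mark glia here. Art3 had the largest difference, a log2 fold change of -0.98 (SE 0.45) at a mean of 0.769 CPM, with 6 and 44 counts in insulin-depleted libraries and 52 and 59 counts in non-depleted libraries.

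Myelin genes were also detected, and some differed between replicate numbers. The myelin list held 14 genes, of which 12 were tested and 0 passed, with 7 above and 5 below 0 and a median of 0.041. Pmp22, a myelin protein that many other cells make, had 318 and 550 counts in insulin-depleted replicates 1 and 2, against 777 and 568 counts in non-depleted replicates 1 and 2. As CPM, replicate 2 over replicate 1 gave 0.514 in the insulin-depleted and 0.610 in the non-depleted group. Mbp averaged 15.7 CPM per kb of exons, the highest level of the list, a gene whose locus also gives transcripts outside myelin. Pllp had the largest difference, a log2 fold change of -0.85 (SE 0.49) at a mean of 0.471 CPM. Cldn19 had 0 counts in 3 libraries and 2 counts in non-depleted replicate 1.

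Transcripts of a partner receptor and of a ligand of Erbb3 were detected in every library, and bulk RNA does not show in which cells. Erbb2, the receptor that Erbb3 pairs with, had 5.81 and 5.46 CPM in insulin-depleted libraries and 5.75 and 5.32 CPM in non-depleted libraries. Nrg1, the axonal neuregulin, had 5.71 and 2.90 CPM in insulin-depleted libraries and 3.40 and 2.60 CPM in non-depleted libraries, with overlapping groups. Per kb of exons, Egfr averaged 6.98, Erbb3 3.89, Erbb2 1.07 and Erbb4 0.0748 CPM. Of 8 genes of this list, 7 were tested and 0 passed, with 6 above and 1 below 0 and a median of 0.17. Nrg4 had the largest difference, a log2 fold change of 0.79 (SE 0.55) at 0.671 CPM.

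The co-receptor Sort1 was more abundant than its partner Ngfr. Sort1 had 255 and 280.1 CPM in insulin-depleted libraries and 235 and 277 CPM in non-depleted libraries, with overlapping groups. Per kb of exons, Sort1 averaged 34.6, the receptor tyrosine kinase gene Ntrk2 5.63 and Ngfr 3.70 CPM. Of 10 genes for neurotrophins and their receptors, 8 were tested and 0 passed, with 4 above and 4 below 0 and a median of -0.0064. Ntf3 had the largest difference, a log2 fold change of 0.52 (SE 0.82) at 0.168 CPM.

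Genes that Schwann cells switch on after nerve injury were mixed. The transcription factor gene Jun, which many cells induce during isolation, had 123 and 113 CPM in insulin-depleted libraries and 113 and 115 CPM in non-depleted libraries. Gdnf, a neurotrophic factor, averaged 12.8 CPM. Olig1 had 0 counts in all 4 libraries, and Shh had 2 and 0 counts in insulin-depleted libraries and 0 and 2 counts in non-depleted libraries. Of 8 genes listed, among them Ngfr itself, 6 were tested and 0 passed, with 3 above and 3 below 0 and a median of -0.050. Artn had the largest difference, a log2 fold change of -0.36 (SE 0.40) at 0.867 CPM.

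Families of S100b and Cryab set these members in scale. Per kb of exons, S100a11 averaged 242, S100a1 153, S100a10 39.6 and S100b 0.890 CPM. Of 17 S100 genes in the table, 13 were tested and 0 passed, with 4 above and 9 below 0 and a median of -0.050, and S100g had the largest difference (log2 fold change -0.66, SE 1.78). Among 10 small heat shock genes, Hspb8 averaged 16.9, Cryab 12.5 and Hspb6 10.4 CPM per kb, and Hspb3 and Hspb9 were at 0 counts in all libraries. Of these 10, 7 were tested and 0 passed, with 2 above and 5 below 0, a median of -0.077 and the largest difference at Hspb2 (log2 fold change -0.93, SE 0.99).

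Markers of other cells that can carry these genes differed widely in level. Adipocytes can make S100b, and the 6 adipocyte markers summed to 0.104 and 0.139 CPM in insulin-depleted libraries and 0.144 and 0.172 CPM in non-depleted libraries, with Lep and Cfd at 0 counts. Melanocytes share Sox10, and the 6 melanocyte markers summed to 14.7 and 14.2 CPM in insulin-depleted libraries and 14.1 and 14.6 CPM in non-depleted libraries. Most of that was Mitf, a transcription factor gene that other cells also use, at a mean of 12.9 CPM, and Dct averaged 1.24 CPM. The pigment genes Tyr and Tyrp1 were at 0 counts in all libraries, and Pmel lay at 0.165 CPM or less. Pericyte and stellate markers, which can go with Gfap and Ngfr, were all detected (10 of 10). They summed to 252 and 247 CPM in insulin-depleted libraries and 257 and 246 CPM in non-depleted libraries. Duct cells can make Erbb3. The 9 ductal markers summed to 1950 and 1781 CPM in insulin-depleted libraries and 1952 and 1797 CPM in non-depleted libraries. Most of that was Spp1, Krt7, Krt18 and Epcam, with means of 743, 358, 355 and 286 CPM. The other ductal markers averaged from 1.23 CPM for Cftr to 59.1 CPM for Muc1, so the sum does not measure duct-cell content. The 6 muscle markers summed to 31.6 and 34.2 CPM in insulin-depleted libraries and 25.7 and 34.6 CPM in non-depleted libraries, most of it Smtn, with Tnnt3 at 0 counts. Of 5 mesothelial markers, Msln averaged 37.3 CPM and the other 4 averaged 0.078 CPM or less. None of the tested genes of these lists passed: 0 of 2 melanocyte, 0 of 10 pericyte and stellate, 0 of 9 ductal, 0 of 3 muscle and 0 of 1 mesothelial markers, with medians of 0.050, -0.040, -0.021, 0.13 and -0.047, and no adipocyte marker was tested. The part of these cells in the levels of the 7 genes was not tested.

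Nerve fibres would bring axonal RNA as well as glia. The 12 neuron and axon markers summed to 104 and 89.3 CPM in insulin-depleted libraries and 106 and 95.1 CPM in non-depleted libraries. Of these, 10 were tested and 0 passed, with 3 above and 7 below 0 and a median of -0.056. Per kb of exons, Tubb3 averaged 13.9, Prph 6.30 and Nefm 5.82 CPM, and endocrine cells can also express these genes. Dbh, an enzyme gene of noradrenergic neurons, lay at 0.275 CPM or less.

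The members' sum differed between replicate numbers in the same direction in both groups. Replicate 2 over replicate 1 gave 0.839 for the summed members in the insulin-depleted and 0.885 in the non-depleted group. Acinar markers, from the digestive tissue around islets, gave 0.415 and 0.416, with sums of 11986 and 4980 CPM in insulin-depleted replicates 1 and 2 and 11938 and 4963 CPM in non-depleted replicates 1 and 2. Endothelial markers gave 1.11 in both groups, and immune markers 1.21 in the insulin-depleted and 1.18 in the non-depleted group. Further Schwann and glial genes gave 1.17 in the insulin-depleted and 1.18 in the non-depleted group, and myelin genes 1.13 and 1.10, above 1 where the members' sum lay below it. None of the tested genes passed, 0 of 9 acinar, 0 of 8 endothelial and 0 of 8 immune markers, with medians of -0.0030, 0.00059 and -0.027. The part of acinar RNA in the members' own difference was not tested.

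**Figure D4:**
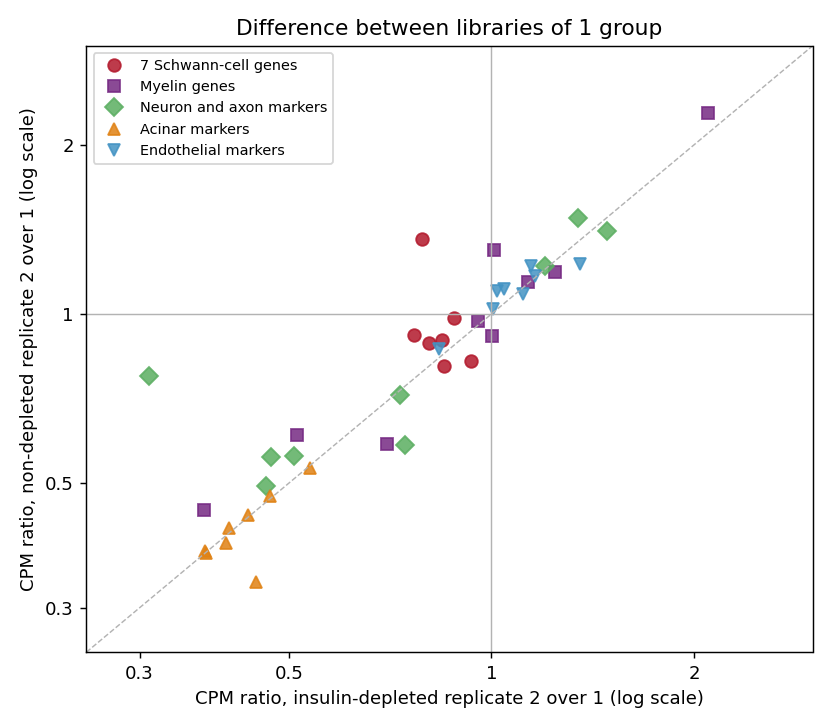
Ratio of replicate 2 over replicate 1 in the insulin-depleted group (horizontal, log axis) and in the non-depleted group (vertical, log axis) for genes averaging 1 CPM or more. Other than S100b the members lie below 1 in both groups and S100b lies above 1 in the non-depleted group alone, while acinar markers lie between 0.334 and 0.538 over both groups (dashed line, equal ratios).

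Gene by gene, the median absolute log2 difference between the numbers was 0.25 for the 7 members in the insulin-depleted and 0.17 in the non-depleted group. Over all 14791 genes averaging 1 CPM or more it was 0.18 and 0.16. Between the groups at the same number, the members' median was 0.11 at number 1 and 0.12 at number 2, against 0.087 and 0.057 for all these genes. These are descriptions, with no test, and S100b and Gfap have few counts.

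The genes whose profile over the 4 libraries was most like that of the summed members were Prrx1, Clcn4, Psme1, Chmp2b and A930004J17Rik. Likeness was the summed absolute difference of centred log2 CPM, which was 0.020 for Prrx1 and 0.037 for A930004J17Rik, the last of the 5. Prrx1 had 47.2 and 39.2 CPM in insulin-depleted libraries and 47.1 and 41.5 CPM in non-depleted libraries. The comparison rests on 4 libraries and 14791 genes.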

How the data were processed

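The authors deposited 1 table of raw counts, whole numbers per gene without normalization, for 4 islet libraries. The deposited non-depleted columns are entered as estimated counts for a technical reason, a word in their headers, and all of their values are whole. Per the submitters' processing notes, cutadapt 4.8, STAR 2.7.11b and the builds GRCm38 and mm10 were used, with roles, counting program and strand setting not stated there. Non-depleted columns were matched to libraries by their replicate number and the missing depletion tag. All 55536 gene identifiers matched GENCODE M21.

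Group differences were fitted in R 4.3.3 by edgeR 4.0.16 (filterByExpr, TMM on totals without Ins1 and Ins2, glmQLFit robust, group alone) and adjusted over all 19620 genes by Benjamini and Hochberg at 0.05. DESeq2 1.42.0 and limma-voom 3.58.1 were alternatives. The edgeR step was tested on simulated data. Intervals of fold changes come from the log2 fold change, its SE and the moderated degrees of freedom, and those of counts cover counting error only. Replicates differed beyond counting noise (chi-square per degree of freedom 32.7 in insulin-depleted and 51.0 in non-depleted libraries). The smallest exact two-sided permutation p for 2 against 2 libraries is 0.333, so none is given for sums. Of each list of nerve genes or gene families, the genes called, the 3 with the highest mean CPM and the one with the largest difference are named, and lists of other cells are given as sums. Some genes that this rule names are not reported here. Nrg1, Sox8, Cldn19, Olig1, Shh, Hspb3, Hspb9, Erbb4, Dbh and the markers of other cells at 0 were named after their values were seen. The single ductal markers were also named after their values were seen. The members and the 20 other lists were chosen with earlier results of these data known.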

Additional observations from a re-analysis of the deposited data

How the results depend on the processing

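With the replicate number as a term (replicate block), 2 genes were called higher and 7 lower over the whole table, against 0 and 2 without it, and members called stayed at 0. Same-numbered libraries deviated together (r = 0.844 across 11600 genes, which are not independent), but with 2 pairs and no label of a shared animal this pairing is a hint from the data only. Full totals with Ins1 and Ins2, no TMM, DESeq2, limma-voom, no filter, counts divided by 2 and the block gave 49 member fold changes, all in the direction reported and none called. Leaving out 1 library at a time turned 6 of 28 further values: the log2 fold change ran from -0.14 to 0.062 for Sox10, -0.23 to 0.10 for Cryab, -0.28 to 0.019 for Cdh19, -0.35 to 0.048 for Ngfr and -0.049 to 0.22 for Erbb3. It ran from -0.46 to -0.045 for S100b and -0.35 to -0.020 for Gfap. The summed level ratio ran from 0.893 to 1.06. With all libraries it was 0.935 without the gene Erbb3 and 0.987 without the gene Cryab. With the length of the longest transcript, levels per kb were 16.5 for Cryab, 2.17 for Sox10 and 0.527 for Gfap, in the same order. Depth limits S100b and Gfap most.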
